A study of Mus musculus with 2 samples.

Results

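The AP-1 and EGR immediate early genes followed here are Fos, Fosb, Jun, Junb, Jund, Egr1, Atf3, Ier2, Dusp1 and Zfp36. They are 10 of the 21905 genes listed in both libraries, were chosen by name, and all 10 had RNA molecules in both libraries. They were measured in cells released from the femurs and tibias of female mice aged 12 weeks. One library came from vehicle-treated animals (Veh). The other came from animals given doxorubicin (Doxo), a DNA-damaging chemotherapy drug, at 10 mg/kg and examined 96 h later. Bones were digested with collagenase at body temperature, and cells carrying CD45, CD71 or Ter119 (and CD31, per the labels) were depleted before droplet-based single-cell RNA sequencing. Each condition is 1 library, the number of mice behind it is not given in the sources used here, and the strain is not given for these libraries. Treatment, animal, digestion and library can therefore not be told apart, and no test between conditions was possible. The 95% intervals given take in the error of counting and nothing else. In summed cells, fewer cells with a transcript and less transcript per cell cannot be told apart.

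Immediate early genes are transcribed within minutes of a growth factor, a cytokine or a stress, without new protein synthesis, and their RNA decays fast. FOS and JUN proteins pair through leucine zippers into AP-1, which binds TPA response elements (TRE), while EGR1 is a zinc finger factor that serum response factor induces through CArG boxes. In bone, FOS family proteins are known for their part in osteoclast and osteoblast development. Enzymatic digestion of tissue at warm temperature is also known to induce these genes in most cell types.

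Promoter sequence was examined first because the members share inducers, and the 4 promoters printed are those in which a motif of the cyclic AMP response element (CRE) or of the related TRE variant was found. RefSeq promoter windows on GRCm38.p6, each 250 bases before and 50 bases after the start, were found for 8 of the 10 members; Egr1 and Ier2 were not matched. Each sequence below is on the strand of its gene, and bases before the start count back from -1. Capitals mark the CRE core TGACGT on either strand, the TRE variant TGACATCA, CCAAT boxes and TATAAA.
Fos (chr12:85473690-85473889, plus strand): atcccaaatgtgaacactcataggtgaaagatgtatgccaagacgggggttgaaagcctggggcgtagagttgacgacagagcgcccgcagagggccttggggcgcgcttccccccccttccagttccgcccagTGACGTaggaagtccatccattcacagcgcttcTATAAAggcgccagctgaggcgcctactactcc
Jun (chr4:95052223-95052422, minus strand): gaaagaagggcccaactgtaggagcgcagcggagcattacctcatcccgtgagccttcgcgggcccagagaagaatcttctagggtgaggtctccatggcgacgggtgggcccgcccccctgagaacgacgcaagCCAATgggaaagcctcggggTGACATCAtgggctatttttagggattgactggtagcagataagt
Atf3 (chr1:191183334-191183533, minus strand): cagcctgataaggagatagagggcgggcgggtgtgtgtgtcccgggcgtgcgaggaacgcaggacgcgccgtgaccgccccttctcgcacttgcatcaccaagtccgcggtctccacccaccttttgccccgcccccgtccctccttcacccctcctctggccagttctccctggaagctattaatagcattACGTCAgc
Dusp1 (chr17:26508520-26508672, minus strand): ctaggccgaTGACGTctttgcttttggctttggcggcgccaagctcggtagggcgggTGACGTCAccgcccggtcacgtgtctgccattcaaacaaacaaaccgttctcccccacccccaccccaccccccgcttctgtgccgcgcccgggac
The Fos, Jun and Atf3 stretches run from base -200 to -1, and the Dusp1 stretch stops at base -48, where an annotated exon begins. In the GENCODE annotation of GRCm38 the Fos and Jun stretches end directly upstream of their genes, which span chr12:85473890-85477273 and chr4:95049034-95052222. The Jun stretch also lies inside the antisense gene Junos, which overlaps Jun itself, and whether the authors' counting used strand is not given in the sources used here. The Atf3 and Dusp1 stretches lie within the spans of their genes, chr1:191170296-191218039 and chr17:26505590-26562128, and outside exons except for 7 bases of the Atf3 stretch.

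TGACGT was in the windows of Fos (bases -66 to -61), Atf3 (-8 to -3) and Dusp1 (-191 to -186 and -143 to -138), against 7.51% of all 32817 promoter windows. The full CRE TGACGTCA, which holds that core, was in Dusp1 alone (-143 to -136) and in 1.79% of all windows. Jun carried TGACATCA (-45 to -38; 3.62% of all windows), and the canonical TRE TGACTCA was in none of the 8 windows and in 5.20% of all. A CArG box was in Zfp36 alone (-58 to -49), against 1.63% of all windows, and the EGR letters GCGGGGGCG were in Fosb and Zfp36, against 2.91%. TATAAA was in Fos and Junb (13.6% of all), CCAAT in Jun, Junb and Atf3 (37.4%), and the SP1 box GGGCGG, which overlaps the EGR letters in Fosb, in 6 of the 8 (35.6%). With the start counted as base 0, the Junb TATAAA lay at bases 0 to 5. The Atf3 CCAAT lay at bases 5 to 9 on the opposite strand, past the end of the printed stretch. Neither of these lies before the start. CCGGAAG, the core of an ETS site, was in Zfp36 (8.86%), and GCGTGGGCG was in none of the 8 (0.612%). Both strands were searched. The CRE core was added to the search after the sequences had been read, and a match in these windows is a description only. The RefSeq start of Jund lies upstream of the GENCODE gene, so its window need not be the promoter in use, and all 200 bases before the RefSeq start of Zfp36 lie in a GENCODE exon, for which reason they are not printed.

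The Veh library held 2488 cells and 24859720 unique molecular identifiers (UMIs, counted RNA molecules), and the Doxo library held 2488 cells and 20792034 UMIs, with medians of 8693 and 7347.5 UMIs per cell. Of the cell barcodes, 4 occurred in both libraries. Clusters gave 6 classes named from marker genes, and the suffix -like marks that the names were rebuilt here: 370 Veh and 430 Doxo Cxcl12-abundant reticular (CAR)-like cells, 1099 and 1352 bone and cartilage fibroblast-like cells, 421 and 252 arteriolar and endosteal fibroblast-like cells, 208 and 126 osteoblast-like cells, 243 and 204 chondrocyte-like cells, and 103 and 69 endothelial-like cells. A cluster of 44 and 55 cells led by Clic5 stayed unnamed. The members were left out of the genes used for clustering. Each named class held UMIs of all markers of its own list in both libraries, but every named class also held all 8 CAR markers. The summed CAR markers (Cxcl12, Lepr, Adipoq and 5 more) stood at 38591 and 46442 CPM (UMIs per 1000000 UMIs of the class) in CAR-like cells and at no more than 2577 CPM in any other class. Summed bone and cartilage fibroblast markers stood at 50310 and 52006 CPM in their own class and higher in the unnamed cluster, at 116028 and 117715 CPM. In chondrocyte-like cells chondrocyte markers stood at 37937 CPM in Veh and 26147 CPM in Doxo, and osteoblast markers at 10928 and 4042 CPM. Endothelial-like cells were present although the labels name a CD31 depletion. Hemoglobin and other erythroid markers stood at 128 to 705 CPM over the classes in Veh and at 6.12 to 65.7 CPM in Doxo, and their part in the results was not tested.

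The members did not move one way in all cells. Their UMIs, summed over the 10 genes and over the cells of a class, stood at 12430.1 CPM in Veh and 25950.5 CPM in Doxo chondrocyte-like cells. Both fibroblast-like classes were also higher in Doxo, with 10117 and 16285 CPM (bone and cartilage) and 11472 and 16198 CPM (arteriolar and endosteal). Endothelial-like cells went from 10932 to 14694 CPM and the unnamed cluster from 6626 to 8865 CPM. CAR-like cells went the other way, from 14835.5 to 12718 CPM, and so did osteoblast-like cells, from 10255 to 8093 CPM. In Veh, CAR-like cells thus had the highest summed level of the 7 groups, and in Doxo chondrocyte-like cells did. Without a sub-cluster of 84 Veh and 3 Doxo cells, described below, the Veh CAR-like level was 10758 CPM, below the chondrocyte-like, arteriolar and endosteal fibroblast-like and endothelial-like levels.

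**Figure D1:**
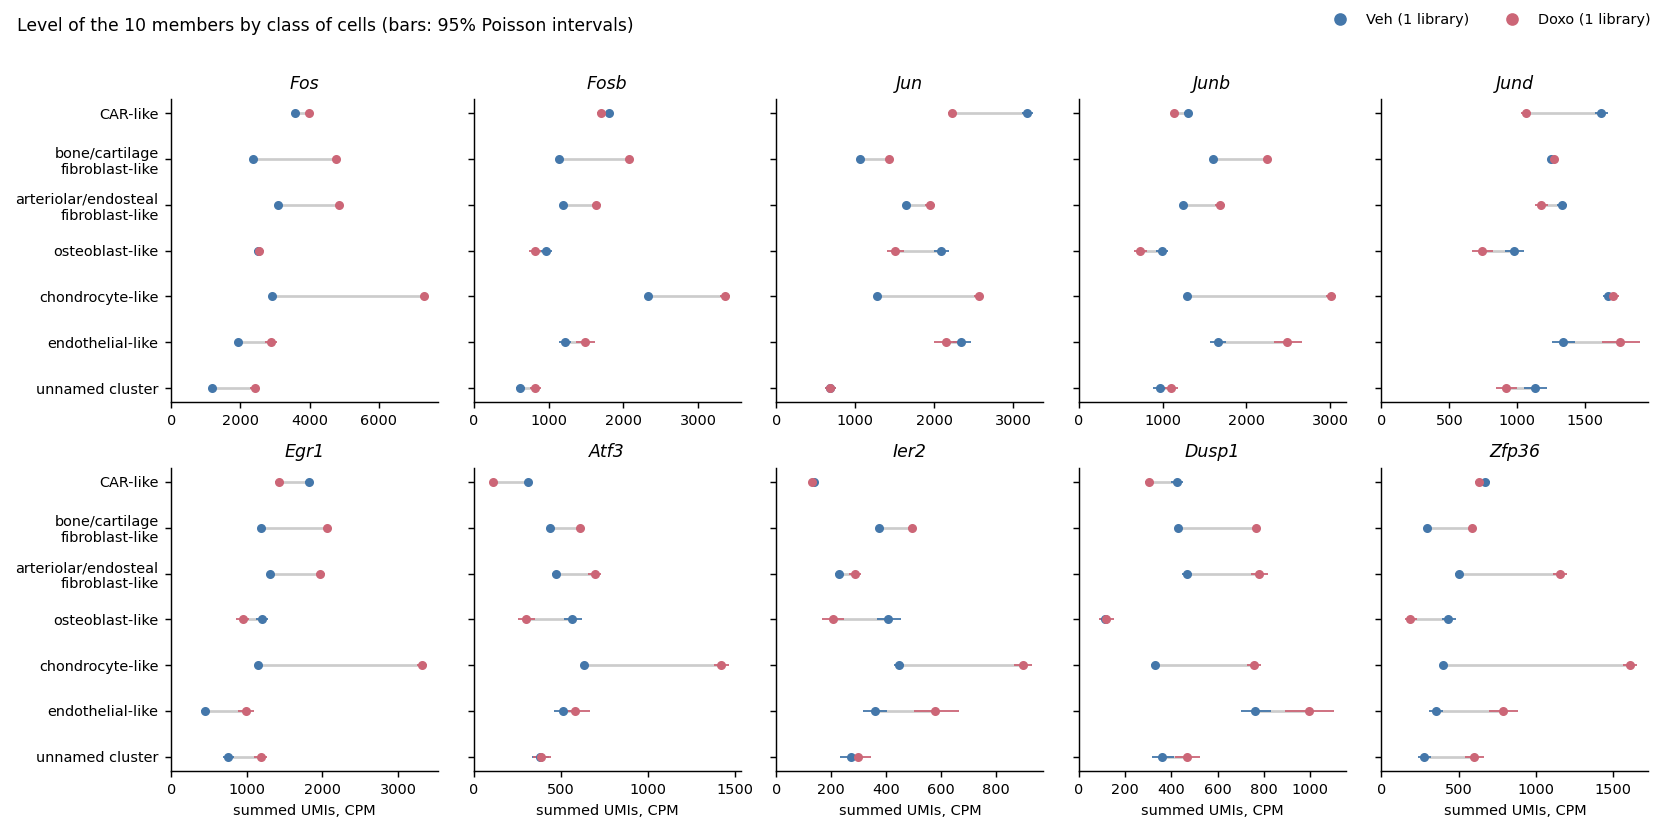
Level of each member in CPM (x axis) in each class of cells (y axis) in the Veh library (blue) and the Doxo library (red), with 95% Poisson intervals for counting error. In chondrocyte-like cells the Doxo point lies to the right of the Veh point for all 10 members, and in CAR-like cells it lies to the left for 9 of 10.

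A log2 ratio of Doxo to Veh was taken from the CPM of each member in each class, after 0.5 UMI had been added to each sum, and its median over the 10 members was compared with that of all genes with at least 50 UMIs in the class. All 10 members passed that minimum in every class, with Dusp1 in osteoblast-like cells the lowest at 93 Veh and 59 Doxo UMIs. In chondrocyte-like cells the median was 1.18, against 0.04 for all genes, and 8 of the 10 members were at least 2-fold higher in Doxo, where 2.87% of 8419 genes were, while none was 2-fold lower (3.93% of genes). In bone and cartilage fibroblast-like cells the median was 0.64, with 2 members 2-fold higher (0.697% of genes) and none lower (1.89%). Arteriolar and endosteal fibroblast-like cells had a median of 0.51, with 1 member 2-fold higher (0.848%) and none lower (2.18%).

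In endothelial-like cells the median was 0.49, with 2 members 2-fold higher (2.31%) and none lower (1.98%), and in the unnamed cluster it was 0.28, with 2 higher (1.73%) and none lower (1.36%). In CAR-like cells the median was -0.28, with 1 member 2-fold lower (2.28%) and none higher (2.62%), but 0.15 once that sub-cluster was left out. Osteoblast-like cells had a median of -0.42, with 1 member 2-fold lower (4.4%) and none higher (1.66%), but 0.033 under a stricter cell filter. Median mitochondrial shares were 2.82% and 4.10% in CAR-like and 2.20% and 4.39% in osteoblast-like cells. Shares of 1 in 10 or 2 in 10 are each a gene or a pair of genes, so outside the chondrocyte-like cells the counts carry little, and the medians and the member values below carry the description.

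**Figure D2:**
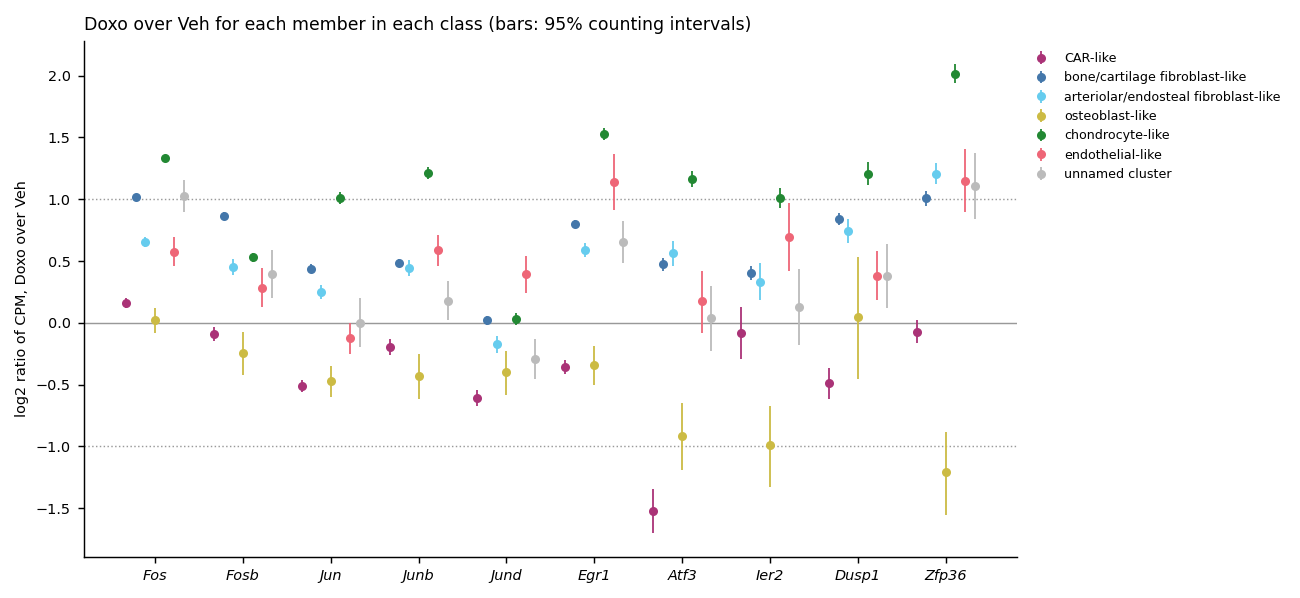
Log2 ratio of CPM, Doxo over Veh (y axis), for each member (x axis) in each class (colours), with 95% counting intervals; dotted lines mark 2-fold. The chondrocyte-like points (green) are the highest of the named classes for 8 of the 10 members, and a CAR-like or osteoblast-like point is the lowest for all 10.

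Fos and Fosb encode the FOS partners of AP-1. Fos stood at 2905 CPM in Veh and 7309 CPM in Doxo chondrocyte-like cells, a log2 ratio of 1.33 (1.30 to 1.36). The bone and cartilage fibroblast-like level went from 2349.9 to 4752 CPM (log2 ratio 1.02), in arteriolar and endosteal fibroblast-like cells from 3089.5 to 4858 CPM (0.65), and in the unnamed cluster from 1184 to 2412 CPM (1.03). Fos was the member with no class in which its interval lay below 0: CAR-like cells had 3570.2 and 3996 CPM (0.16), endothelial-like cells 1935 and 2886 CPM (0.58), and osteoblast-like cells 2511 and 2545 CPM, with an interval from -0.08 to 0.12. Fosb had its highest level in chondrocyte-like cells in both libraries, 2331 CPM in Veh and 3362 CPM in Doxo, but its largest ratio in bone and cartilage fibroblast-like cells, 1141 to 2072 CPM (0.86). In CAR-like cells Fosb was at 1806 and 1697 CPM (-0.09), and in osteoblast-like cells at 970.4 and 818 CPM (-0.25).

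Jun, Junb and Jund encode the JUN partners, of which JUND is known as the constitutively expressed one. Jun was highest in CAR-like cells in Veh, 3176 CPM, and stood there at 2228 CPM in Doxo (-0.51, interval -0.56 to -0.47). Osteoblast-like cells showed a similar ratio, from 2087 to 1505 CPM (-0.47), whereas chondrocyte-like cells went from 1269.8 to 2559.6 CPM (1.01). In endothelial-like cells Jun was at 2343 and 2149 CPM and in the unnamed cluster at 683 CPM in both libraries, differences within counting error. Both fibroblast-like classes were higher in Doxo, at 1055 and 1430 CPM for bone and cartilage (0.44) and 1640 and 1946 CPM for arteriolar and endosteal (0.25).

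Junb was higher in Doxo in endothelial-like cells, where Jun was not. It stood at 1296 and 3006 CPM in chondrocyte-like cells (1.21), 1659 and 2491 CPM in endothelial-like cells (0.59), 1602 and 2241 CPM in bone and cartilage fibroblast-like cells (0.48), 1301 and 1136 CPM in CAR-like cells (-0.20), and 989.8 and 733 CPM in osteoblast-like cells (-0.43). Jund differed by less than its counting error in both of the following classes. It was at 1666 and 1704 CPM in chondrocyte-like cells (0.03, -0.02 to 0.08) and at 1249 and 1266 CPM in bone and cartilage fibroblast-like cells (0.02, -0.01 to 0.05). In CAR-like cells it was lower in Doxo, 1618 against 1065 CPM (-0.60), and in osteoblast-like cells 976 against 739 CPM (-0.40), while endothelial-like cells had 1337 and 1757 CPM (0.39, 0.25 to 0.54). It was also lower in Doxo in arteriolar and endosteal fibroblast-like cells, 1327 against 1177 CPM (-0.17), and in the unnamed cluster, 1127 against 919 CPM (-0.30).

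Egr1, the zinc finger factor, showed the second largest ratio of the members in chondrocyte-like cells, from 1153 to 3320.0 CPM (1.53, 1.48 to 1.57). Endothelial-like cells held the least Egr1 in Veh, 448 CPM, and 986 CPM in Doxo (1.14). Bone and cartilage fibroblast-like cells went from 1186 to 2064 CPM (0.80), and CAR-like cells from 1819 to 1419.7 CPM (-0.36). The order of the classes thus turned over: CAR-like cells led in Veh and chondrocyte-like cells in Doxo. Ier2, a nuclear early-response protein, was lowest in CAR-like cells in both libraries, at 137 and 129 CPM (-0.08, -0.29 to 0.13). It was past 2-fold higher in chondrocyte-like cells alone, at 446 and 899 CPM (1.01), and stood at 408 and 205 CPM in osteoblast-like cells (-0.99).

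Atf3, a stress-induced bZIP factor that can repress AP-1 sites, had the lowest log2 ratio of any member in any class. In CAR-like cells it was at 314 CPM in Veh (792 UMIs) and at 109 CPM in Doxo (371 UMIs), a log2 ratio of -1.52 (-1.70 to -1.34). In chondrocyte-like cells it went the opposite way, from 636 to 1423 CPM (1.16). Osteoblast-like cells had 566 and 299 CPM (-0.91), both fibroblast-like classes were higher in Doxo (0.47 and 0.56), and in endothelial-like cells the difference was within counting error (515 and 579.99 CPM). In Doxo the chondrocyte-like level was 13.0 times the CAR-like level, against 2.02 times in Veh.

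Dusp1 and Zfp36 encode feedback regulators: DUSP1 is a phosphatase that switches off MAP kinases, and ZFP36 (tristetraprolin) binds AU-rich elements and destabilises cytokine RNA. Zfp36 had the largest ratio of any member, from 398 to 1610.2 CPM in chondrocyte-like cells (2.02, 1.94 to 2.09), and also the largest spread between classes. It was also more than 2-fold higher in arteriolar and endosteal fibroblast-like cells (501 to 1158 CPM, 1.21), endothelial-like cells (354 to 786 CPM, 1.15), the unnamed cluster (278 to 599 CPM, 1.11) and bone and cartilage fibroblast-like cells (293 to 588 CPM, 1.01). In osteoblast-like cells it was lower in Doxo, 187 against 434 CPM (-1.21), and in CAR-like cells it stood at 669 and 636 CPM, within counting error. Dusp1 was highest in endothelial-like cells in both libraries, at 763 and 994 CPM (0.38). It went in chondrocyte-like cells from 328 to 757 CPM (1.21) and was lower in CAR-like cells, 424 against 302 CPM (-0.49). In osteoblast-like cells, at 113 and 116 CPM, no difference was detectable at this depth.

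Neighbours in the order of levels often overlapped. For Atf3 in Veh all 6 neighbouring pairs of classes had overlapping intervals, as did 5 of 6 for Ier2, while for Fos and Jun in Veh none did. In Doxo the chondrocyte-like level stood apart from the next class for Fos, Fosb, Jun, Junb, Egr1, Atf3, Ier2 and Zfp36. For Jund in Doxo endothelial-like and chondrocyte-like cells overlapped, and for Dusp1 both fibroblast-like classes and the chondrocyte-like cells did.

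To separate what the classes share from what 1 class shows, the median over the 6 named classes was taken for each member, and each class was set against the median of the other 5. The median over classes was highest for Zfp36 (1.08), Egr1 (0.69), Fos (0.62) and Dusp1 (0.56), lower for Junb (0.46), Fosb (0.37), Ier2 (0.37) and Atf3 (0.32), and near 0 for Jun (0.06) and Jund (-0.08). Set against the other classes, chondrocyte-like cells were above for 10 of 10 members, by a median of 0.80. CAR-like cells were below for 10 of 10, with a median difference of -0.72, and osteoblast-like cells for 10 of 10, with -0.82. Without the sub-cluster of 84 Veh and 3 Doxo cells, CAR-like cells were below for 6 of 10 members (median -0.21), and above for Fosb, Junb, Ier2 and Zfp36. The remaining 3 classes lay closer to the median of the others, with medians of 0.26, 0.12 and 0.03 for bone and cartilage fibroblast-like, arteriolar and endosteal fibroblast-like and endothelial-like cells.

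The direction in CAR-like cells rested on 1 group of cells. Clustered alone, CAR-like cells gave 3 sub-clusters: sub-cluster 1 with 275 Veh and 410 Doxo cells, sub-cluster 2 with 84 Veh and 3 Doxo cells, and sub-cluster 3 with 11 and 17 cells. Sub-cluster 2 was led by Il6, Ccl2, Ccl7, Cxcl1 and Myc, and as a cluster mostly of 1 library it may be that library and not a type of cell. Its leading genes also included Fosl1 and Nr4a3, early-response genes that, like the members, were not used in clustering. It held 22.7% of the Veh CAR-like cells and 48.9% of their member UMIs, at 24574 CPM against 11093 CPM in sub-cluster 1 of the same library. Without sub-cluster 2 the summed members stood at 10758 CPM in Veh and 12689 CPM in Doxo, and in sub-cluster 1 alone at 11093 and 12163 CPM, a log2 ratio of 0.13 (0.11 to 0.16). Without these cells, a choice made after seeing the data, the direction of the sum was thus the opposite of that in all CAR-like cells. The cells left out were nearly all Veh cells with a high member level, so a higher ratio without them follows from their make-up.

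Within sub-cluster 1 the members parted, with a median of 0.05, against -0.03 for all genes. Of the 10, 2 were at least 2-fold higher in Doxo (1.7% of 8924 genes) and 1 was 2-fold lower (1.54%). Zfp36 went from 268 to 609 CPM (1.18, 1.03 to 1.34) and Fosb from 806 to 1627 CPM (1.01, 0.92 to 1.10), with Junb (0.30) and Ier2 (0.35) also higher in Doxo. Fos went from 3526 to 3878 CPM (0.14, 0.09 to 0.18). Jun (-0.18), Egr1 (-0.12) and Dusp1 (-0.21) stayed slightly lower, and Jund (-0.04) lay within counting error. Atf3 was lower still, from 228 CPM (365 UMIs) to 48.8 CPM (148 UMIs), a log2 ratio of -2.22 (-2.51 to -1.94). Of the 371 Atf3 UMIs of Doxo CAR-like cells, 218 lay in the 17 Doxo cells of sub-cluster 3, which had a median of 20557 UMIs per cell against 7137 in sub-cluster 1. Over both libraries sub-cluster 3 was marked, within the CAR-like cells, by 9 of the 10 bone and cartilage fibroblast markers and 7 of the 8 chondrocyte markers. Without sub-cluster 2 alone, Atf3 was at 210.3 and 109 CPM (-0.95). Whether sub-cluster 3 holds doublets was not tested.

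**Figure D3:**
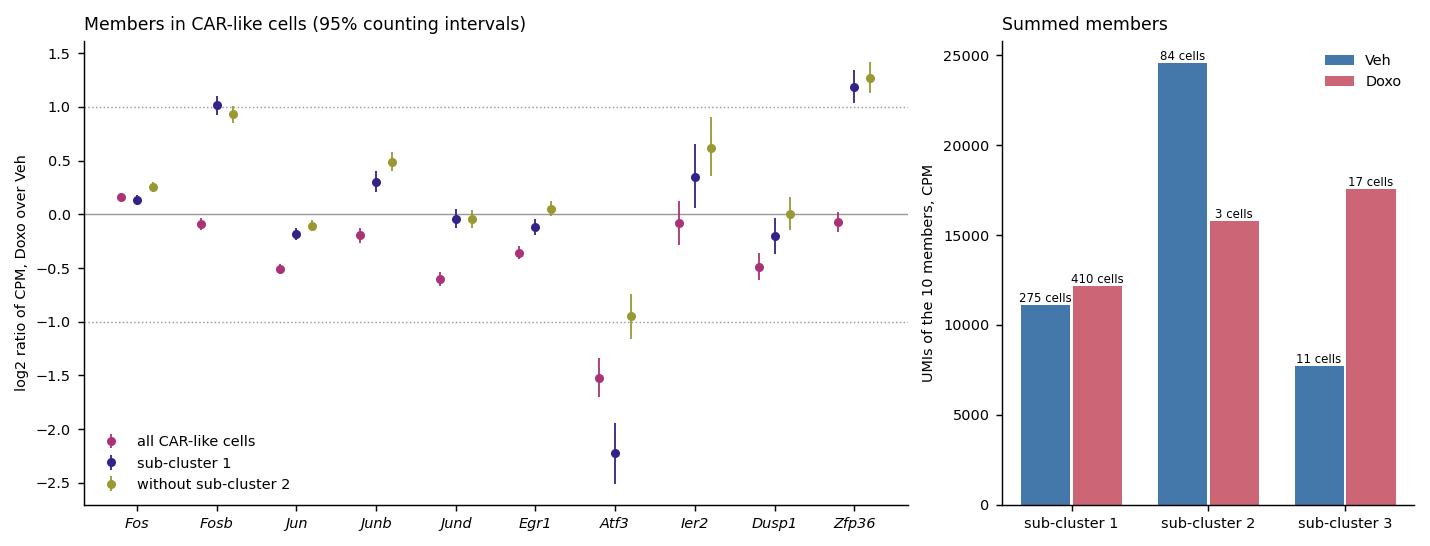
Left, log2 ratio of CPM, Doxo over Veh (y axis), of each member in all CAR-like cells, in sub-cluster 1 and without sub-cluster 2, with 95% counting intervals. Right, summed CPM of the 10 members (y axis, from 0) in each sub-cluster and library with the number of cells above each bar; the 84 Veh cells of sub-cluster 2 stand at 24574 CPM.

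The lower osteoblast-like level was found in shallow or mitochondria-rich cells. These cells had a median of 3102 UMIs in Veh and 2940 UMIs in Doxo, the lowest of the classes, and 80 of 208 Veh and 37 of 126 Doxo cells passed a stricter filter of 1000 or more genes with mitochondrial UMIs of 5% or less. In those cells the summed members stood at 10118 CPM in Veh and 10219 CPM in Doxo. In the other osteoblast-like cells they stood at 10402 and 6427 CPM. Of the osteoblast-like cells, 101 in Veh and 62 in Doxo had fewer than 1000 genes. Mitochondrial UMIs were above 5% in 40 Veh and 50 Doxo cells, and a cell can be in both counts. The cells left out thus differed in make-up between the libraries, and the part of this in their levels was not tested. Chondrocyte-like cells that met the same limits held 12530 and 26668 CPM. CAR-like cells that met them held 15141 and 14239.7 CPM, and those that did not held 11109 and 7321 CPM.

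Seen cell by cell, with each cell thinned to 2000 UMIs so that depth is equal, chondrocyte-like cells differed over most of their range. The median cell held 21 member UMIs in Veh (237 cells) and 53 in Doxo (201 cells), and the lower quartile of Doxo, 37, lay above the upper quartile of Veh, 30. Bone and cartilage fibroblast-like cells went from a median of 14 to 27, and arteriolar and endosteal fibroblast-like cells from 16 to 26, with broader overlap. In CAR-like cells the median was 12 in Veh and 4 in Doxo, yet the upper quartiles were 41 and 36, and the tenth of cells with most member UMIs held 42.5% of them in Veh and 45.2% in Doxo. Endothelial-like cells had medians of 19.5 and 21, and osteoblast-like cells of 13 and 6 with 48 Veh and 26 Doxo cells too shallow to be thinned. Cells are not replicates, and these quantiles describe the libraries.

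**Figure D4:**
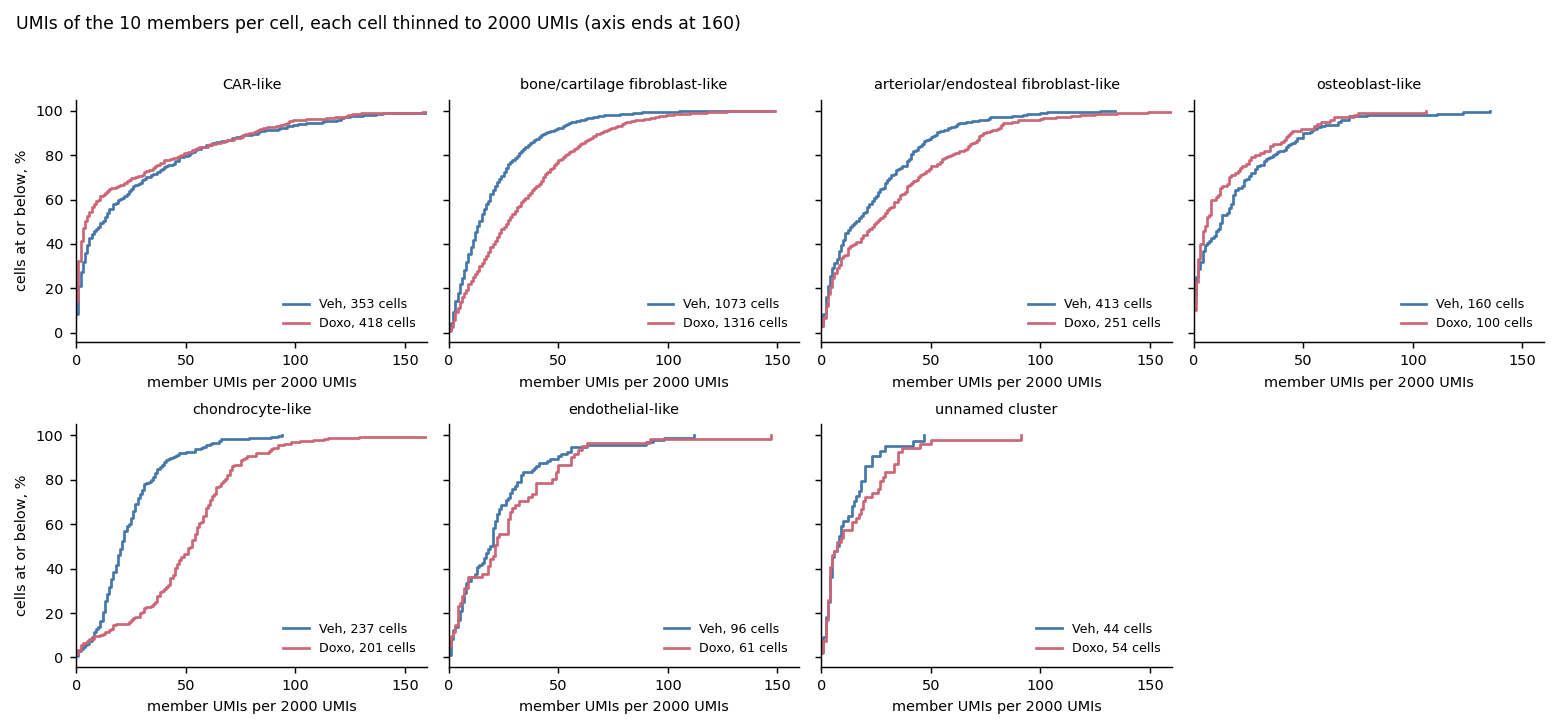
Share of cells (y axis, %) with at most the given number of member UMIs per 2000 UMIs (x axis), for Veh (blue) and Doxo (red) in each class. The chondrocyte-like curves stand apart over most cells, with medians of 21 and 53, and the CAR-like curves differ mainly below 40 UMIs.

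At equal depth the share of cells with a UMI followed the levels for some members and not for others. Egr1 was found in 72.2% of thinned Veh chondrocyte-like cells (65.98% to 77.8%, exact binomial) and 95.02% of Doxo ones (91.0% to 97.6%). Zfp36 was found in 41.4% (35.01% to 47.9%) and 76.6% (70.1% to 82.3%). Fosb, with a log2 ratio of 0.53 in these cells, was found in 88.2% and 87.6%, and Jund (0.03) in 86.9% and 79.1%. In CAR-like cells Atf3 was found in 23.2% of Veh (18.9% to 28.0%) and 9.09% of Doxo cells (6.51% to 12.3%). Zfp36, whose level there differed by less than counting error, was found in 40.8% and 32.8%. Without thinning, the Atf3 shares were 38.6% of 370 and 17.2% of 430 CAR-like cells, and the chondrocyte-like shares were 96.3% and 97.5% for Egr1 and 82.3% and 87.3% for Zfp36. Each class is known to be able to express these genes, so no class served to set the level that free RNA gives, and the shares cannot be read as shares of expressing cells.

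Members tended to be found in the same cells. Over the 45 pairs of members, the median Pearson correlation of log counts in thinned cells was 0.44 in 353 Veh and 0.54 in 418 Doxo CAR-like cells, 0.32 and 0.35 in bone and cartilage fibroblast-like cells, and 0.20 and 0.36 in chondrocyte-like cells. The tightest pair was Fos with Fosb in Doxo CAR-like cells (0.87), Doxo osteoblast-like cells (0.75) and Doxo chondrocyte-like cells (0.69), and Fos with Egr1 in both libraries of bone and cartilage fibroblast-like cells (0.57 and 0.62). These correlations are over cells of 1 library each, share its handling, and are descriptions.

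Other genes of the pathway were read from lists by their counts and medians, beside all genes of the class. Of 37 other early-response genes, 30 of the 35 with at least 50 UMIs in CAR-like cells were lower in Doxo (median -0.76, against 0.06 for all genes). There 11 of them were 2-fold lower, against 2.28% of all genes. In bone and cartilage fibroblast-like cells 29 of 35 were higher (median 0.28) and in chondrocyte-like cells 25 of 36 (median 0.43). In the latter, 9 were 2-fold higher (2.87% of all genes) and 2 were 2-fold lower (3.93%), the lowest at -3.14. The list's lowest genes in CAR-like cells were Arc, a cytoskeletal early gene with 80 and 11 UMIs (-3.23), and Nr4a3, an orphan nuclear receptor, at 68.6 and 11.8 CPM (-2.53). Its highest were Klf2, a Krüppel-like factor, at 194 and 347 CPM (0.84), and Dusp6, an ERK phosphatase, at 38.4 and 52.2 CPM (0.44). The Klf2 ratio was 2.48 in chondrocyte-like, 1.21 in bone and cartilage fibroblast-like and 0.95 in endothelial-like cells. In sub-cluster 1 of the CAR-like cells this list had a median of -0.08, with 18 of 33 genes lower and none past 2-fold.

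The bZIP partners of AP-1 had medians near 0 in both fibroblast-like classes and were lower in CAR-like cells (11 of 12, median -0.46). They were also lower in osteoblast-like cells (7 of 7, median -0.61) and in 10 of 14 cases in chondrocyte-like cells (median -0.37). In sub-cluster 1 of the CAR-like cells the median was -0.08, with none past 2-fold. In all CAR-like cells Fosl1, the FRA-1 gene, had 48 and 11 UMIs (-2.50) and Maff, a small MAF protein, stood at 97.9 and 29.8 CPM (-1.71). Maf (0.31) and Atf7 (-0.03) were the highest of the list in all CAR-like cells. The list shares Fosl1, Fosl2 and Maff with the early-response list. The kinases and factors upstream had medians from -0.11 to 0.24 over the classes, with no gene past 2-fold. In CAR-like cells Map3k1, a MAP kinase kinase kinase (-0.65), and Mapk8, the JNK1 gene (-0.48), were the lowest, and Mapk3, the ERK1 gene (0.75), and Elk3, an ETS factor (0.77), the highest.

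Known AP-1 targets were mostly lower in Doxo, and not in all classes. In chondrocyte-like cells, where the members had their highest ratios, 6 of 7 AP-1 targets with at least 50 UMIs were lower in Doxo (median -2.15). Of these, 5 were past 2-fold, against 3.93% of all genes there. Among them were Il6, an inflammatory cytokine with 124 and 12 UMIs (-2.68), and Timp1, a metalloproteinase inhibitor, at 866 and 195 CPM (-2.15). In arteriolar and endosteal fibroblast-like cells 5 of 9 were lower (median -0.08), and in osteoblast-like cells 2 of 2 were higher. In CAR-like cells 4 of 5 were lower: Ccl2, a monocyte chemokine, went from 3009 to 178 CPM (-4.08), Il6 from 84.8 to 9.73 CPM (-3.11) and Mmp13, a collagenase, from 334.55 to 186 CPM (-0.84), while Timp1 was at 60.6 and 63.7 CPM (0.07). Ccl2 was also lower in bone and cartilage fibroblast-like (-3.01) and endothelial-like cells (-5.90). It was higher in arteriolar and endosteal fibroblast-like cells (0.39) and in the unnamed cluster (7 and 120 UMIs, 3.99). Il6 was higher in arteriolar and endosteal fibroblast-like cells, at 142 and 165 UMIs (1.23). Of RNAs with AU-rich elements that ZFP36 can bind, a list that shares Ccl2 and Il6 with the targets, 9 of 9 were lower in CAR-like cells (median -3.18), including Cxcl2, a neutrophil chemokine, at 131 and 5.31 CPM (-4.59), with Ier3, a survival factor (-0.76), and Csf1, the macrophage growth factor (-0.06), the highest. In arteriolar and endosteal fibroblast-like cells 6 of 9 were higher (median 0.15), in bone and cartilage fibroblast-like cells 4 of 10 (-0.29) and in chondrocyte-like cells 2 of 6 (-1.14). In endothelial-like cells 6 of 6 were lower (-1.60). In CAR-like sub-cluster 1 the AP-1 target and AU-rich lists had medians of -0.41 over 4 genes and -0.32 over 6 genes. Lower there were 3 of the 4 and 4 of the 6, and none was 2-fold lower (1.54% of all genes). Of the AU-rich list 1 was 2-fold higher (1.7%), at 1.02. Ccl2 and Il6 are among the genes that led sub-cluster 2. Immune markers stood at 502 CPM in Veh and 58.7 CPM in Doxo CAR-like cells, with 1 cell in each library holding a UMI of Ptprc, the CD45 gene. The part of immune RNA in the chemokine values was not tested.

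Heat shock genes can be induced by warm digestion and by protein damage. They were lower in Doxo for 12 of 12 genes in CAR-like cells (median -1.10, against 0.06 for all genes). There 7 of the 12 were 2-fold lower, against 2.28% of all genes. Lower too were 12 of 12 in bone and cartilage fibroblast-like cells (-0.20, against -0.08 for all genes) and 12 of 12 in endothelial-like cells (-0.41). So were 10 of 10 in osteoblast-like cells (-0.61) and 9 of 12 in arteriolar and endosteal fibroblast-like cells (-0.21). The members had positive medians in 3 of those 5 classes. In the unnamed cluster 10 of 12 heat shock genes were lower (-0.45), and the median of the members there was 0.28. In chondrocyte-like cells 8 of 12 heat shock genes were higher (0.10), with Hspa1b, an inducible HSP70, at 1.21, while the co-chaperone Hsph1 was at -0.79. In CAR-like cells Hsph1 went from 207 to 56.9 CPM (-1.86) and Hspb1 from 390 to 132 CPM (-1.57), with Hspe1 (-0.26) and Hspa1b (-0.68) the highest of the list. In sub-cluster 1 the heat shock median was -0.66, with 12 of 12 lower, whereas the median of the members there was 0.05. Genes listed as controls of scaling had medians from -0.06 to 0.21 over the classes. In CAR-like cells Tbp (0.36) and Sdha (0.32) were the highest of them, and Hprt was at 0.0077.

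**Figure D5:**
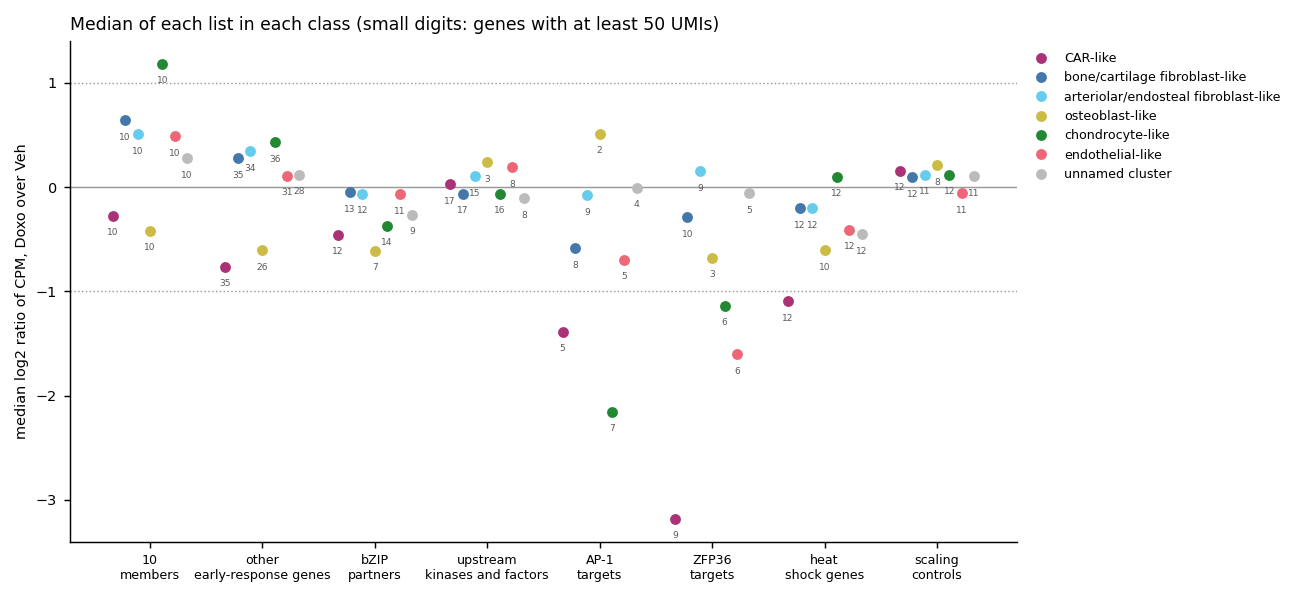
Median log2 ratio of CPM, Doxo over Veh (y axis), of the members and each other list (x axis) in each class (colours); small digits give the number of genes with at least 50 UMIs. Chondrocyte-like cells stand at 1.18 for the members and -2.15 for the AP-1 targets, and CAR-like cells are below 0 for both.

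Among 5467 genes with at least 1000 UMIs, the 5 whose log2 CPM over the 14 groups of class and library were most like the summed members were Ptch1, the Hedgehog receptor (Pearson r 0.87), Egr3, an EGR family factor (0.85), Ddit3, a bZIP factor of the stress response (0.84), Ercc6l2, a DNA repair factor (0.81), and Snhg8, a small nucleolar RNA host gene (0.80). Of the members themselves, Fosb (0.93) and Fos (0.91) followed the sum most closely and Ier2 (0.43) least, Fosb and Fos being also part of it. In chondrocyte-like cells Ptch1 went from 164 to 455 CPM, Egr3 from 43.9 to 156 CPM and Ddit3 from 15.4 to 67.1 CPM. The 14 groups share 2 libraries and differ in depth, so the likeness is a description.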

How the data were processed

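For the build and tools, the submitters' processing notes name GRCm38, mm10, Cell Ranger and Partek, and versions are not given in the sources used here. Each deposited value is the log2 level of a gene in a cell, which the authors had scaled (in 2 rounds, as read from the values). They were inverted per cell to UMIs, of which 99.9% were whole within 0.05. Cells were merged and clustered in Seurat 5.3.0 (R 4.3.3) with 35 principal components of 2000 variable genes, without the members, other early-response genes and heat shock genes, at a resolution of 0.1, and a cluster was named from at least 3 of its markers. Doublets were kept. UMIs were summed per class. Intervals are exact Poisson, exact binomial or exact conditional binomial (95%), tested on simulated data. Named genes are the 10 members, from each other list the 2 highest and 2 lowest CAR-like log2 ratios (minimum 50 UMIs), and the 5 genes most alike in pattern. One gene that this rule names is not reported here. Further chondrocyte-like and sub-cluster values of named genes, and the values in cells left out by the stricter filter, were chosen after values were seen. The members and lists were chosen with earlier results of these data known. Sums and intervals used scipy 1.17.1 and pandas 2.3.3 under Python 3.11.15.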

Additional observations from a re-analysis of the deposited data

Results flagged for a closer look

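For 9 of the 10 members the log2 ratio of Doxo to Veh lay below 0 in 1 class and above 0 in another, each with an interval that excludes 0, and these differences between classes were not tested. The exception was Fos. From the highest to the lowest named class, the log2 ratios differed by 3.22 for Zfp36 and 2.68 for Atf3. The differences were 2.00 for Ier2, 1.88 for Egr1, 1.69 for Dusp1, 1.65 for Junb and 1.52 for Jun. They were 1.11 for Fosb and 1.00 for Jund. Chondrocyte-like cells were the highest class for all of these but Fosb (bone and cartilage fibroblast-like) and Jund (endothelial-like), and the lowest were CAR-like or osteoblast-like cells. Without sub-cluster 2 of the CAR-like cells, an alternative chosen after seeing the data, the CAR-like ratios of Fos, Fosb, Junb, Ier2 and Zfp36 were above 0, and those of Egr1 (0.053) and Dusp1 (0.0055) had intervals that span 0. For Dusp1 no class then had an interval below 0, so it would leave the 9 members above.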

How the results depend on the processing

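No paired analysis was possible because each condition has 1 library. With 1 library a condition, no replicate could be left out. The median over the members kept its sign in the 3 classes of bone and cartilage fibroblast-like, arteriolar and endosteal fibroblast-like and chondrocyte-like cells under every alternative run (ranges 0.54 to 0.73, 0.36 to 0.56 and 0.45 to 1.22), and in endothelial-like cells (0.04 to 0.55) and the unnamed cluster (0.08 to 0.35). It turned in CAR-like cells (range -0.79 to 0.15) and in osteoblast-like cells (-1.28 to 0.03). In the largest CAR-like sub-cluster the median was 0.048, with 2 members 2-fold higher (Fosb at 1.01 and Zfp36 at 1.18) and 1 lower (Atf3 at -2.22), against 1.7% and 1.54% of all genes. Junb there turned, to 0.30. Leaving out sub-cluster 2, chosen after seeing the data, gave 0.15, with 0 members 2-fold lower and 1 higher, and Fosb at 0.93, Junb at 0.49, Egr1 at 0.053 and Dusp1 at 0.0055. Under thinning, equal weights and the stricter cell filter, Fosb in CAR-like cells was at 0.039, 0.031 and 0.037.

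Under the stricter filter (1000 or more genes, mitochondrial UMIs of 5% or less), the osteoblast-like median was 0.033 with 0 members 2-fold lower, and Fosb (0.048), Jun (0.018), Jund (0.054) and Egr1 (0.054) turned. The unnamed cluster then had 1 member 2-fold higher. With every cell weighing the same, the osteoblast-like median was -0.74 with 3 members 2-fold lower, and bone and cartilage fibroblast-like, endothelial-like and unnamed cells had 0 members 2-fold higher. Without the 5% of cells with most UMIs, the osteoblast-like median was -0.69 with 2 members lower, and the unnamed cluster had 0 members higher, with Junb at -0.17 and Jund in unnamed cluster cells at 0.00587. Thinning gave 0 osteoblast-like members 2-fold lower, 1 unnamed-cluster member higher and Jund there at 0.12. With classes from markers alone, the arteriolar and endosteal fibroblast-like median was 0.36 with 0 members 2-fold higher, and Jun (-0.34) and Ier2 (-0.086) turned. Averages of the deposited log2 values, which weigh detection more than level, gave medians of -0.79 in CAR-like, -1.28 in osteoblast-like, 0.45 in chondrocyte-like and 0.040 in endothelial-like cells. On that scale Jun in arteriolar and endosteal fibroblast-like cells was -0.25, Fos, Fosb, Junb and Jund in endothelial-like cells were -0.031, -0.58, -0.015 and -0.39, and Fos and Dusp1 in the unnamed cluster were -0.30 and -0.73. The causes of these shifts were not tested. Of 70 values (10 members in 7 groups), the sign was kept by 70 with 1 UMI added or with mitochondrial and ribosomal protein genes left out of the total, 68 when centred on the median of all genes, 67 with the early-response and heat shock genes used in clustering, 66 under thinning, 64 with equal weights, 63 without the largest cells, 60 under the stricter filter and 58 on the deposited log2 scale. It was kept by 54 of 60 with classes from markers alone, by 6 of 10 in the largest CAR-like sub-cluster, by 4 of 10 without sub-cluster 2 and by 10 of 10 in the larger bone and cartilage fibroblast-like cluster. Dropping the minimum of 50 UMIs could change no value, because all 10 members passed it in all 7 groups. The named classes with fewest Doxo cells were endothelial-like (69) and osteoblast-like (126).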
